A study of Mus musculus with 8 samples.

Results

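The effect of PRDM16 knockdown in adipocytes that had received no rosiglitazone was measured on 4 of the 8 arrays of the series, chosen by their titles: 2 arrays of cells expressing sh-PRDM16, a short hairpin RNA against PRDM16, and 2 of cells expressing sh-scr, the control hairpin. All 4 came from stromal vascular (SV) cells of male C57BL/6J inguinal white fat that had been differentiated into adipocytes in culture, and none had received the drug (rosiglitazone at 0 µM). The other 4 arrays held the same cells and hairpins with 1 µM rosiglitazone, an agonist of the fat cell receptor PPARγ, and are used only where the untreated difference is set against the treated one. The design text calls the 2 arrays of a group biological replicates. No source used here says whether they came from separate animals or cultures, how the hairpins were delivered, or how many clones or hairpins were used, so each p-value measures the spread between these arrays, which may be technical.

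PRDM16 is a zinc finger transcriptional coregulator that turns on the brown and beige fat programme, the heat-producing state of fat cells with many mitochondria and the uncoupling protein UCP1. It binds other factors, among them PPARγ, PPARα, PGC-1α and C/EBPβ, rather than acting alone. Inguinal fat is a white depot known for its capacity to take on beige character. The stromal vascular fraction is a mixture that holds fat cell precursors and also macrophages, endothelial cells and pericytes, so a culture grown from it need not hold one cell type.

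Values are deposited probe set intensities. Differences are on the scale of log2(intensity + 16) as sh-PRDM16 minus sh-scr, with a standard error from a limma fit to all 8 arrays, and understate the change of dim genes. The 4 untreated arrays differed in median intensity (127 and 136 with sh-scr, 122 and 105 with sh-PRDM16), so each test was run on deposited values and again after every array had been centred on its median. A gene is said to rise or fall where its adjusted p was below 0.05 on both scales with 1 sign, and printed differences are those of the deposited values. Prdm16 itself could not be used to check the labels, because no probe set used here is paired with that symbol. The fat cell identity of the cultures was borne out by Adipoq (adiponectin) at 14760.2 and 15191 on the sh-scr arrays and 10994 and 9965 on the sh-PRDM16 arrays and by Fabp4 (the fatty acid carrier of fat cells) at 22736 and 21794 on the sh-scr arrays and 19493 and 16409.9 on the sh-PRDM16 arrays. The defining markers Plin1 and Cfd were not analysed here.

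Both arrays of a group correlated at r = 0.991 over probe sets, and sh-scr with sh-PRDM16 arrays at 0.983 to 0.984. The 2 sh-PRDM16 arrays stood apart from each other in interferon-response genes. After median-centring, 30 of 31 genes of that list were higher in sh-PRDM16 replicate 2 than in replicate 1, by a median of 0.69, and 10 by at least 1. The same number was 0 of 31 between the sh-scr arrays, and over all 9295 genes 114 differed by at least 1 between the sh-PRDM16 arrays and 99 between the sh-scr arrays. Ifit1, an interferon-induced antiviral gene, read 404 and 372 on the sh-scr arrays and 190.1 and 1550.3 on the sh-PRDM16 arrays. Rsad2, another, read 388 and 479.5 on the sh-scr arrays and 181 and 976 on the sh-PRDM16 arrays. Replicate 1 lay below both sh-scr arrays in these genes and replicate 2 above them, so results are given without each of them where that matters.

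**Figure D1:**
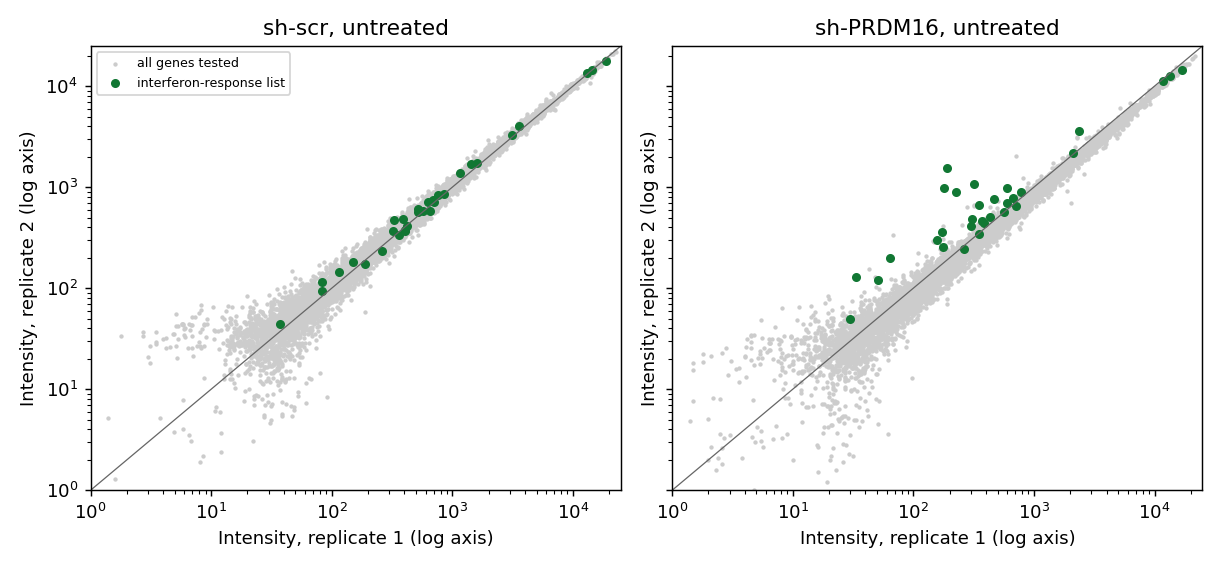
Intensity of each tested gene on replicate 1 (x axis) against replicate 2 (y axis) of the untreated sh-scr group (left) and the untreated sh-PRDM16 group (right), both on log axes, with the 31 interferon-response genes in green. The green points lie near the diagonal in the sh-scr panel, and most lie above it in the sh-PRDM16 panel. The plotted intensities are as deposited. After median-centring, which is not shown, 30 of 31 were higher on sh-PRDM16 replicate 2.

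Of 9295 genes tested, 184 were higher in sh-PRDM16 cells on both scales (1.98%) and 1135 were lower (12.2%). On deposited intensities alone 1458 were lower (15.7%) and 184 higher. On median-centred intensities 1159 were lower (12.5%) and 884 higher (9.51%), so the split between rises and falls depended on the scale, while 0 genes were called with opposite signs on the 2 scales. The median difference over all genes was -0.16 on deposited and 0.03 on centred intensities. The falls were also the larger changes: 330 genes fell by at least 1 log2 unit and 47 by at least 2, against 28 and 0 that rose by as much. Groups did not overlap on either scale for 3954 genes, or 42.5%, which is the background for each statement below that groups do not overlap. The deposited count of lower genes was 906 without sh-scr replicate 1, 575 without sh-scr replicate 2 and 642 without sh-PRDM16 replicate 2, and the count of higher genes was 111, 101 and 86 without sh-scr replicate 1, sh-scr replicate 2 and sh-PRDM16 replicate 1.

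**Figure D2:**
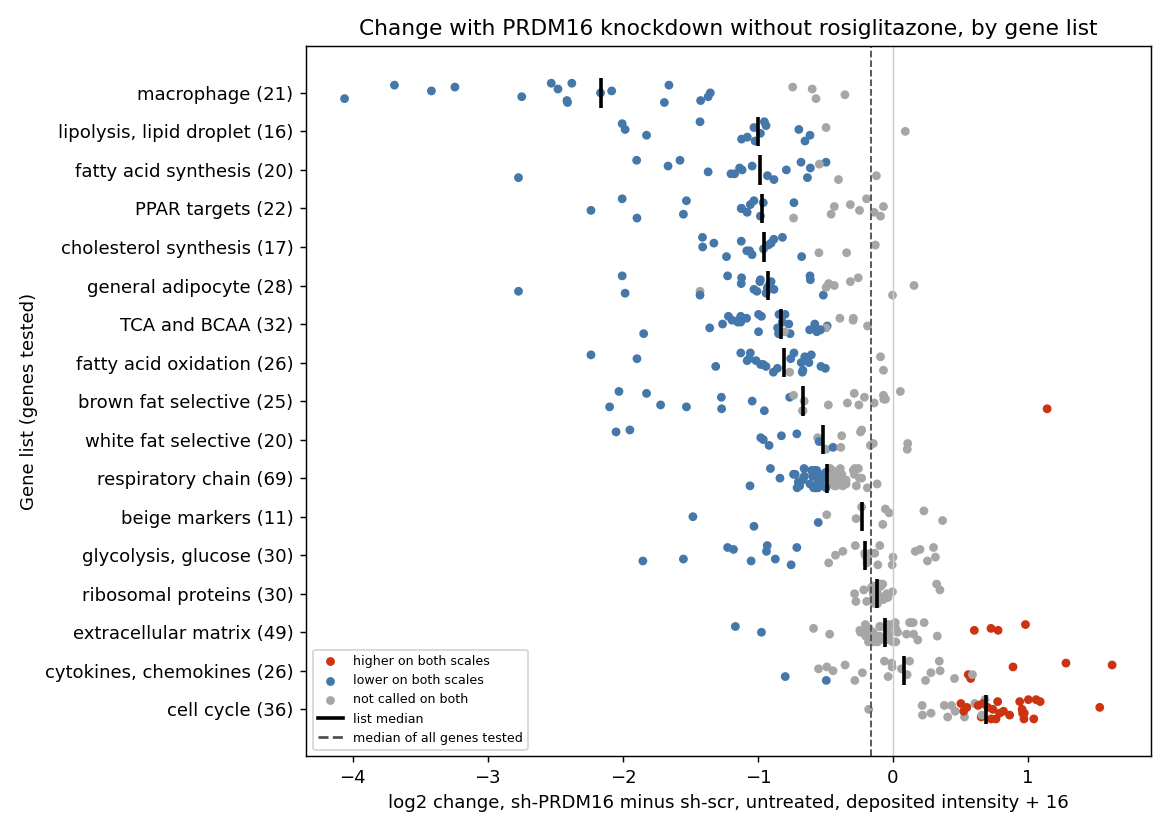
Change of each tested gene (x axis, log2 of deposited intensity + 16, sh-PRDM16 minus sh-scr, untreated) in 17 gene lists (y axis, number of genes tested in brackets), with called genes in colour, the list median as a black bar and the median of all 9295 genes as a dashed line. The macrophage list has a median of -2.17, lists of fat cell and mitochondrial genes lie mostly left of the dashed line, ribosomal protein genes lie beside it and cell cycle genes have a median of 0.69.

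Macrophage genes showed the largest falls. Of 21 tested genes of the macrophage and leukocyte list, 17 fell and 0 rose, with a median of -2.17 against -0.16 for all genes, and the 4 others were at or above an adjusted p of 0.05 on at least one scale. At an unadjusted p under 0.05, limma gave 0 of the 21 as higher. Lyz2, the lysozyme of macrophages, read 3148 and 3308 on the sh-scr arrays and 234 and 236 on the sh-PRDM16 arrays and fell by 3.69 ± 0.13 (adjusted p = 9.8e-07). Tyrobp, a signalling adaptor of myeloid receptors, read 281 and 369.8 against 20.4 and 19.1 and fell by 3.24 ± 0.20 (adjusted p = 2.7e-05). The 3 chains of C1q, the first complement component and a product of tissue macrophages, all fell. C1qb read 217 and 229 against 26.2 and 24.5 and fell by 2.53 ± 0.14 (adjusted p = 2.0e-05), C1qc read 183 and 192 against 1.4 and 4.8 and fell by 3.42, and C1qa read 179 and 179.8 against 4.1 and 26.0 and fell by 2.75. In each of these genes both sh-PRDM16 arrays lay below both sh-scr arrays. The summed intensity of the 21 genes was 13354 and 14799 on the sh-scr arrays and 1977 and 1858 on the sh-PRDM16 arrays. In a culture, fewer cells of a type and less RNA per cell cannot be told apart from such values, here or in any group below.

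Among the defining macrophage markers, the lysosomal protein gene Cd68 (363 and 488 against 79.1 and 54.7), the F4/80 gene Adgre1 (187 and 191 against 39.4 and 56.7) and the pan-leukocyte gene Ptprc (62.5 and 99.0 against 23.8 and 15.5) fell, with log2 changes of -2.41, -1.69 and -1.42. The receptor gene Csf1r did not follow them: it read 746 and 809 against 643 and 566, a log2 change of -0.36 ± 0.15 (adjusted p = 0.15), and its other probe sets gave -0.19 and -0.05. Other genes among the 15 largest falls are known from macrophages too, although they were in no list: Clec4d, a C-type lectin receptor (512 and 514 against 18.4 and 35.3), Cd5l, a secreted macrophage protein (386 and 459 against 26.6 and 27.6), C3ar1, the C3a receptor (148 and 169 against 2.9 and 13.8), and Mmp12, macrophage elastase (858 and 807 against 119 and 94.6), which fell, with log2 changes of -3.65, -3.34, -2.88 and -2.79. The largest fall of all carried the name Lyz1 (5666 and 6329 against 328 and 361), but from a probe set that can share signal with its near-identical neighbour Lyz2. A second Lyz1 probe set of this shared kind fell by 5.44, and the remaining one averaged an intensity of 15.2 and gave -0.77 (adjusted p = 0.28), so Lyz1 and Lyz2 are not separable here. The chosen C1qb and Clec4d probe sets are also of a kind that can share signal with related sequences. Leaving out any 1 untreated array left 16 to 18 macrophage genes called lower on deposited intensities, against 18 with all arrays.

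Promoter sequences were read from RefSeq (build GRCm38.p6, 250 bases before to 50 after each start) for the called genes of 8 lists. They were searched on both strands for 6 short motifs, picked after the results were known: the CHR core TTTGAA and the CCAAT box of cell cycle promoters, the PU.1 core GAGGAAG of myeloid genes, the ERR element TCAAGGTCA, the NRF1 core GCGCATGCG and the sterol element TCACCCCAC. None of them contains another. The NRF1 core was first searched in a form 1 letter longer, which none of the risen cell cycle genes held, and was shortened after those counts had been seen, for a reason of format, so its counts are of the shorter form. A match is a description of the letters only. Of 13 fallen macrophage genes with a promoter in the table, 7 held GAGGAAG (53.8%), against 16.2% of 7511 tested genes and 15.4% of all 27018 genes. Among the other 7 sets the share ran from 0 of 18 fatty acid oxidation genes to 38.5% of fatty acid synthesis genes. The promoters shown held a match and belong to the genes that fell most among those with 1 promoter in the table. The match is in capitals (CTTCCTC on the printed strand). The promoter of C1qc lies at chr4:136892865-136893164, minus strand, with its match at position -194, and that of Ctss, the lysosomal protease cathepsin S, at chr3:95526536-95526835, plus strand, with its match at -1. Ctss read 1031 and 1149.8 against 195 and 189 and fell by 2.41.
C1qc: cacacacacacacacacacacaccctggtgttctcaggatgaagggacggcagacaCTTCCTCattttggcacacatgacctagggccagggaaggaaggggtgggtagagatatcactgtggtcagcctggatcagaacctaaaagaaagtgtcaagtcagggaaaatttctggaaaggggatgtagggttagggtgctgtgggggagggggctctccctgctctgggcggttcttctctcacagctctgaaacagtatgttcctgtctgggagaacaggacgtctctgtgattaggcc
Ctss: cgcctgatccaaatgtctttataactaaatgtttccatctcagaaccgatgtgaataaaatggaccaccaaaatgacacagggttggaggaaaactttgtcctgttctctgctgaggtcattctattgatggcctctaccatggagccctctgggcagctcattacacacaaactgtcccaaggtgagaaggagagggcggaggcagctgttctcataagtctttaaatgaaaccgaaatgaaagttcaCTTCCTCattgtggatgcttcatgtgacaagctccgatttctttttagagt

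Genes that fat cells of any kind express fell as a group, though less than the macrophage genes. Of 28 tested general adipocyte genes 20 fell and 0 rose, with a median of -0.93. 26 of the 28 lay below the median of all genes. Pparg, the receptor that drives fat cell differentiation, read 3116 and 3234 on the sh-scr arrays and 1742 and 1461 on the sh-PRDM16 arrays and fell by 0.99 ± 0.14 (adjusted p = 0.0019). Cebpa, its partner in that role, read 2091 and 2299 against 1233 and 950.5 and fell by 1.01 ± 0.16 (adjusted p = 0.0033). Cebpb, which acts earlier in differentiation and binds PRDM16, read 5396 and 5625 against 5142 and 4127, a log2 change of -0.26 ± 0.14 (adjusted p = 0.25). The groups did not overlap in any of the 3 genes, but the difference in Cebpb did not pass the test. The abundant fat cell products differed by less than Pparg and Cebpa: Adipoq fell by 0.52 (adjusted p 0.023 to 0.15 with 1 array left out, at or above 0.05 without sh-scr replicate 1, sh-scr replicate 2 or sh-PRDM16 replicate 2), and Fabp4 had a log2 change of -0.32 ± 0.13 (adjusted p = 0.14). The dimmer Fabp4 probe sets, averaging 10651, 631 and 465, gave -0.47, -0.86 and -1.07 (adjusted p = 0.20, 0.017 and 0.030 in a limma fit of all probe sets).

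The largest falls of the list were in genes of lipid handling. Thrsp, a regulator of fatty acid synthesis, read 1834 and 2184 against 265 and 294 and fell by 2.77 ± 0.16 (adjusted p = 2.0e-05). Gpd1, which supplies glycerol phosphate for triglycerides, read 2732 and 3418 against 782 and 718 and fell by 2.01 ± 0.16 (adjusted p = 1.0e-04). Cidec, which enlarges lipid droplets, read 906 and 994 against 234 and 222 and fell by 1.98 ± 0.13 (adjusted p = 5.1e-05). Cd36, the fatty acid transporter, read 9664 and 10419 against 4942 and 4276 and fell by 1.12, and Slc2a4, the insulin-responsive glucose transporter, read 318 and 354 against 139 and 129.7 and fell by 1.22. Klf15, a fat cell transcription factor, had a large difference that did not pass the test, with sh-PRDM16 replicate 2 far below replicate 1: it read 100.2 and 78.6 against 61.4 and 3.6, a log2 change of -1.43 ± 0.48 (adjusted p = 0.072), and passed on deposited intensities without sh-PRDM16 replicate 1 (adjusted p = 0.0014). Without sh-PRDM16 replicate 2, 15 general adipocyte genes were called lower on deposited intensities, against 21 with all arrays. On the same arrays the macrophage list fell to between 1858 and 1977 in summed intensity from 13354 and more. Its part in the adipocyte result, and in the lipid and mitochondrial results that follow, was not tested.

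**Figure D3:**
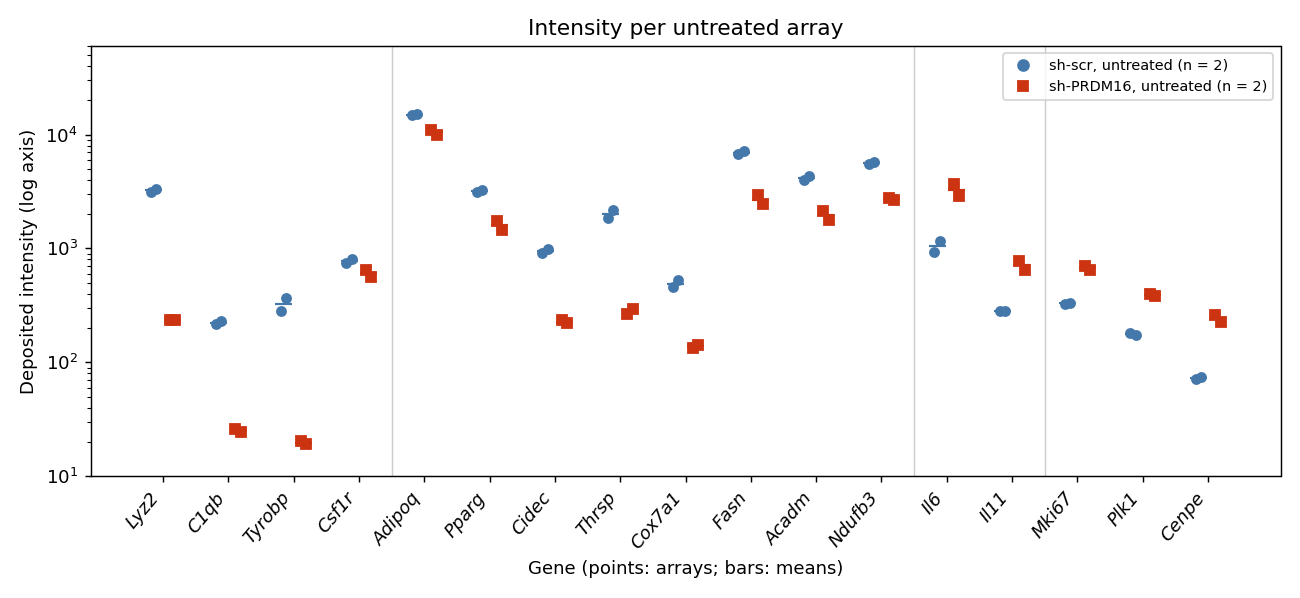
Deposited intensity (y axis, log scale) of 17 genes on each of the 4 untreated arrays (sh-scr blue circles, sh-PRDM16 red squares, bars at the means of 2), with vertical lines between macrophage, fat cell and metabolic, cytokine, and cell cycle genes. Both sh-PRDM16 arrays lie below both sh-scr arrays in the first 12 genes, by little in Csf1r and Adipoq, and above them in the last 5. Lyz2, C1qb, Tyrobp, Thrsp, Il6, Il11, Plk1 and Cenpe were picked among genes whose groups do not overlap.

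Genes typical of brown fat fell in part, and some, such as Ucp1 and Cidea, were near the floor in untreated cells. Of 25 tested brown-selective genes 11 fell and 1 rose, with a median of -0.67. Ucp1, the uncoupling protein that makes heat, was near the floor in every untreated culture at 5.2 and 20.6 on the sh-scr arrays and 4.6 and 3.4 on the sh-PRDM16 arrays, a log2 change of -0.48 ± 0.23 (adjusted p = 0.19), so no knockdown effect on it was detectable at this signal. It passed on deposited intensities only when sh-scr replicate 1 was left out (adjusted p = 0.016). Cidea, a lipid droplet protein of brown and beige fat, read 14.0 and 24.2 against 2.3 and 1.6 and fell by 0.95 ± 0.16 (adjusted p = 0.0049), also near the floor. Cox8b, a brown-selective cytochrome oxidase subunit, read 103 and 92.5 against 5.2 and 20.5 and fell by 2.03 ± 0.23 (adjusted p = 6.3e-04). Cox7a1, another such subunit, was better measured at 458 and 525 on the sh-scr arrays and 133 and 143 on the sh-PRDM16 arrays and fell by 1.72 ± 0.17 (adjusted p = 2.9e-04). Elovl3, an elongase of very long fatty acids induced in cold-exposed brown fat, read 206 and 269 against 39.0 and 46.9 and fell by 2.10 ± 0.16 (adjusted p = 9.8e-05).

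Regulators on this list fell as well. Ppargc1a, which encodes the mitochondrial coactivator PGC-1α, read 123 and 135 against 42.5 and 45.8 and fell by 1.27 ± 0.13 (adjusted p = 3.1e-04). Ppara, the receptor that controls fatty acid oxidation, read 53.3 and 33.4 against 19.4 and 6.8 and fell by 1.04 (adjusted p 0.0090 to 0.086 with 1 array left out, at or above 0.05 without sh-scr replicate 1 or sh-PRDM16 replicate 2). Plin5, which ties lipid droplets to mitochondria, fell by 1.82, Pdk4, which holds back pyruvate oxidation, fell by 1.53, and the potassium channel gene Kcnk3 fell by 1.27. The 1 gene of the list that rose was Eva1a, a gene tied to autophagy, at 59.1 and 59.7 against 175 and 129, which rose by 1.14 ± 0.15 (adjusted p = 0.0012). Of 11 beige markers 3 fell and 0 rose, with a median of -0.23, and the share of 27.3% stands beside 12.2% over all genes. They were Slc27a1, a fatty acid transporter (fell by 1.48 ± 0.15 (adjusted p = 4.0e-04)), Aqp7, a glycerol channel (log2 change -1.03, adjusted p 0.0025 to 0.059 with 1 array left out, at or above 0.05 without sh-PRDM16 replicate 2), and P2rx5, a purinergic receptor (log2 change -0.55, adjusted p 0.031 to 0.17 with 1 array left out, at or above 0.05 without sh-scr replicate 1, sh-scr replicate 2 or sh-PRDM16 replicate 2). Cited1 was near the floor at 4.9 and 3.8 against 18.1 and 4.2.

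Genes selective for white fat fell too, so the decline was not limited to brown genes. Of 20 tested, 9 fell and 0 rose, with a median of -0.52. Lep, which encodes the hormone leptin, read 294 and 463 against 94.2 and 62.6 and fell by 2.05 ± 0.22 (adjusted p = 4.5e-04). Retn, which encodes resistin, read 3475 and 4346 against 899.9 and 1101 and fell by 1.95 ± 0.17 (adjusted p = 1.8e-04). Both fell about as far as Elovl3 and Cox8b; a difference between white and brown genes was not tested. Wfdc21 (3328 and 3477 against 1897 and 1596) and the amino acid transporter gene Slc7a10 (148 and 147 against 62.9 and 70.9) fell, with log2 changes of -0.96 and -0.98. The deposited count of 9 was 4 without sh-scr replicate 2 and 5 without sh-PRDM16 replicate 2.

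Most listed genes that make, store and release fat fell. Of 20 fatty acid synthesis genes 17 fell and 0 rose (median -0.99), of 17 cholesterol synthesis genes 14 fell and 0 rose (median -0.96), of 16 lipolysis and lipid droplet genes 14 fell and 0 rose (median -1.0), and of 22 PPAR target genes 13 fell and 0 rose (median -0.97). These lists share members with one another and with the adipocyte list, so they are not separate results. Fasn, fatty acid synthase, read 6712 and 7176 on the sh-scr arrays and 2935 and 2443 on the sh-PRDM16 arrays and fell by 1.37 ± 0.14 (adjusted p = 4.0e-04). Acss2, which makes acetyl-CoA from acetate, read 3155 and 3809 against 1004 and 840.0 and fell by 1.90 ± 0.17 (adjusted p = 2.1e-04). Acacb, the acetyl-CoA carboxylase at mitochondria, read 47.4 and 42.8 against 3.0 and 3.5 and fell by 1.67 from a low level. Mlxipl, the glucose-sensing factor ChREBP, read 186 and 274 against 64.5 and 65.9 and fell by 1.58. Without sh-scr replicate 2 the deposited count of lower fatty acid synthesis genes was 11, against 18 with all arrays.

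The genes of both main enzymes of fat release fell. Pnpla2, the triglyceride lipase ATGL, read 2528 and 2771 on the sh-scr arrays and 1040.2 and 910.3 on the sh-PRDM16 arrays and fell by 1.43 ± 0.14 (adjusted p = 2.5e-04). Lipe, hormone-sensitive lipase, read 1035 and 1169.7 against 558 and 443 and fell by 1.12 ± 0.16 (adjusted p = 0.0018). G0s2, an inhibitor of ATGL, read 5632 and 6182 against 2942 and 2638 and fell by 1.08, so the genes of enzyme and inhibitor both fell. Among the PPAR targets, Pck1, which feeds glycerol synthesis, read 74.1 and 70.9 against 10.1 and 18.9 and fell by 1.55.

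In cholesterol synthesis, genes of early and of late steps fell. Fdps, farnesyl diphosphate synthase, read 3088 and 3621 against 1277 and 1219 and fell by 1.41 ± 0.13 (adjusted p = 2.2e-04). Lss, which closes the sterol ring, read 587 and 715 against 210.3 and 260.3 and fell by 1.41 ± 0.17 (adjusted p = 7.1e-04). Pmvk, phosphomevalonate kinase, read 836 and 881 against 339 and 326 and fell by 1.33, and Nsdhl, a sterol dehydrogenase, read 1264 and 1625 against 658 and 549 and fell by 1.23. All 11 of the 11 fallen cholesterol genes with a promoter in the table held CCAAT, against 43.0% of tested genes, and 1 of 11 held the sterol element. CCAAT was also present in 11 of 13 fallen fatty acid synthesis genes. Some genes have several promoters in the table: counted by promoter, 78.6% of the 14 cholesterol promoters held CCAAT, against 37.3% of 9700 promoters of tested genes. The promoters of Lss (chr10:76531355-76531654, plus strand, match at -62) and Nsdhl (chrX:72918271-72918570, plus strand, 4 matches) are shown because they held the motif, had 1 promoter each in the table and fell most among such genes, with CCAAT or its reverse complement ATTGG in capitals.
Lss: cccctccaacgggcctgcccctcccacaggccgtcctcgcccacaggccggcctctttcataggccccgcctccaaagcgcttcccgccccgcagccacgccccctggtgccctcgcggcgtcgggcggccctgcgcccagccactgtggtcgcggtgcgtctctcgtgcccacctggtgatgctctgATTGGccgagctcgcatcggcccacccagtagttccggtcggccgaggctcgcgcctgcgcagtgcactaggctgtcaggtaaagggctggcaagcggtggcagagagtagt
Nsdhl: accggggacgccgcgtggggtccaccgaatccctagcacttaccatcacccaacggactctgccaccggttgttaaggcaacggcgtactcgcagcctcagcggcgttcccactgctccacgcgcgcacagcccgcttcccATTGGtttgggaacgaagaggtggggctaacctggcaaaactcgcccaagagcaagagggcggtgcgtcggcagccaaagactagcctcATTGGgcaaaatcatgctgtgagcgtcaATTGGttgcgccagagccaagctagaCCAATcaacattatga

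Genes of mitochondrial fuel oxidation fell in most listed members. Of 26 fatty acid oxidation genes 23 fell and 0 rose (median -0.81), and of 32 genes of the citric acid cycle and of branched-chain amino acid breakdown 26 fell and 0 rose (median -0.83). All 32 of the latter lay below the median of all genes. Acadm, the medium-chain acyl-CoA dehydrogenase, read 3974 and 4322 on the sh-scr arrays and 2127 and 1791 on the sh-PRDM16 arrays and fell by 1.08 ± 0.14 (adjusted p = 0.0013). Ehhadh, a peroxisomal enzyme of the pathway and a PPARα target, read 178 and 192 against 24.9 and 28.4 and fell by 2.24 ± 0.15 (adjusted p = 3.8e-05). Acaa1b, a peroxisomal thiolase with the close relative Acaa1a, read 396 and 521 against 103 and 119 and fell by 1.90, and Acaa2, the mitochondrial thiolase, read 1544 and 1794 against 702 and 621 and fell by 1.31. Aldh6a1, which acts in valine breakdown, read 1526 and 1850.1 against 509 and 408 and fell by 1.85 ± 0.20 (adjusted p = 4.4e-04). Pcx, pyruvate carboxylase, read 2889 and 3147 against 1428 and 1278 and fell by 1.15. Without sh-scr replicate 2 the deposited counts were 14 fatty acid oxidation genes, against 24 with all arrays, and 17 citric acid cycle and amino acid genes, against 27.

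Respiratory chain genes fell by less, and their count depended on which arrays were used. Of 69 tested subunit genes 35 fell and 0 rose, with a median of -0.49 on deposited and -0.30 on centred intensities, and 68 of the 69 lay below the median of all genes. Ndufb3, a complex I subunit, had the largest fall at 5558 and 5716 on the sh-scr arrays and 2753 and 2644 on the sh-PRDM16 arrays, and fell by 1.06 ± 0.13 (adjusted p = 7.1e-04). Sdha, the catalytic subunit of complex II, read 3805 and 4243 against 2371 and 1923 and fell by 0.91 ± 0.15 (adjusted p = 0.0038). Uqcr10, a complex III subunit, read 3794 and 4128 against 2293 and 2128 and fell by 0.84 ± 0.13 (adjusted p = 0.0026). The deposited count of 44 was 12 without sh-scr replicate 1, 4 without sh-scr replicate 2 and 10 without sh-PRDM16 replicate 2. It was 52 without sh-PRDM16 replicate 1.

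Of 30 genes of glycolysis and glucose handling 10 fell and 0 rose, with a median of -0.21 that is close to the -0.16 of all genes. Those that fell included Gys2, a glycogen synthase (68.6 and 111 against 11.1 and 14.5, log2 change -1.85), Irs1, which carries the insulin signal (1429.9 and 1482 against 666 and 602, log2 change -1.18), and Ldhb, a lactate dehydrogenase subunit (1060.0 and 1013 against 534 and 534, log2 change -0.94). Of 14 genes of apolipoproteins and cholesterol efflux 10 fell and 0 rose (median -0.68). Apoe read 5636 and 5917 on the sh-scr arrays and 2499.9 and 2314 on the sh-PRDM16 arrays and fell by 1.26 ± 0.13 (adjusted p = 4.3e-04). Abca1, which exports cholesterol, read 4687 and 5318 against 1847 and 1686 and fell by 1.49 ± 0.16 (adjusted p = 4.2e-04). Both are expressed by macrophages as well as by fat cells, and the part of the macrophage decline in them was not tested. Without sh-scr replicate 2 the deposited count of this list was 5, against 10. Of 26 antioxidant genes 8 fell and 0 rose, among them Cat, catalase (7271 and 7363 against 4294 and 3296, log2 change -0.96), and that count was 3 without sh-scr replicate 1, sh-scr replicate 2 or sh-PRDM16 replicate 2.

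Of 26 tested genes that encode partners and cofactors of PRDM16, 4 fell and 0 rose (median -0.14). They were Pparg, Ppara and Ppargc1a, given above, and Nfia, a factor that opens brown fat enhancers (627 and 649 against 385 and 370.3), which fell by 0.73 ± 0.14 (adjusted p = 0.0072), with an adjusted p of 0.056 without sh-scr replicate 2. Zfp423, a factor that holds white fat cells in their white state, had a log2 change of -0.39 ± 0.14 (adjusted p = 0.093). A share of 4 in 26 is near the 12.2% of all genes that fell.

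Cell cycle genes rose together. Of 36 tested, 24 rose and 0 fell on both scales, against 1.98% of all genes that rose, with a median of 0.69, and 34 were higher on centred intensities. Their summed intensity was 20342 and 19870.4 on the sh-scr arrays and 33179.5 and 28126 on the sh-PRDM16 arrays. Cenpe, a mitotic kinesin, read 71.2 and 74.3 on the sh-scr arrays and 258 and 224 on the sh-PRDM16 arrays and rose by 1.53 ± 0.21 (adjusted p = 0.0015). Plk1, a mitotic kinase, read 179.6 and 172 against 401 and 384 and rose by 1.09 ± 0.13 (adjusted p = 6.8e-04). Aurka, a kinase of the spindle poles, read 259 and 252 against 565 and 524 and rose by 1.04 ± 0.12 (adjusted p = 7.2e-04). Mki67, the common proliferation marker, read 325 and 333 against 704 and 647 and rose by 1.00 ± 0.16 (adjusted p = 0.0037). Cenpa, the centromeric histone, read 279 and 300.3 against 689 and 561 and rose by 1.06 ± 0.20 (adjusted p = 0.0071), and Ube2c, which helps to end mitosis, read 832 and 783 against 1646 and 1554 and rose by 0.97. Both sh-PRDM16 arrays lay above both sh-scr arrays in Aurka, Mki67, Cenpa and Ube2c. For Cenpe and Plk1, which are among the 15 largest rises, this was a condition of their choice. Hmmr, a spindle-associated gene outside the list, was also among the 15 largest rises (223 and 183 against 483 and 443, log2 change 1.13). Its dimmer probe sets gave 0.80, 0.65 and 0.41 (adjusted p = 0.064, 0.15 and 0.47 in a limma fit of all probe sets). The deposited count of 24 was 16 without sh-scr replicate 1, 13 without sh-scr replicate 2 and 15 without sh-PRDM16 replicate 1. The fat cell lists and the macrophage list fell on the same arrays, and how the makeup of the cultures bears on the cell cycle result was not tested.

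Of 20 risen cell cycle genes with a promoter in the table, 12 held the CHR core TTTGAA (60%) and 16 held CCAAT (80.0%), against 14.0% and 43.0% of 7511 tested genes. The other sets searched held TTTGAA in between 7.14% and 26.1% of genes. The ERR element and the sterol element (0.359% and 0.652% of tested genes) were found in 0 of the 20, and the NRF1 core (4.09% of tested genes) in 1. Each of the other sets held the NRF1 core in 0 to 2 genes. The ERR element was found in 0 of 18 fallen fatty acid oxidation genes, 0 of 23 fallen citric acid cycle and amino acid genes and 1 of 28 fallen respiratory chain genes. The promoters of Plk1 (chr7:122159185-122159484, plus strand), Cenpa (chr5:30666636-30666935, plus strand) and Aurka (chr2:172370521-172370820, minus strand) are shown because they held TTTGAA and rose most among genes with 1 promoter in the table, with TTTGAA and CCAAT or ATTGG in capitals. TTTGAA begins at position 31 after the start in Plk1, 17 in Cenpa and 33 in Aurka, and a CCAAT box stands upstream of it in all 3, at -14 in Plk1, at -109 and -86 in Cenpa and at -51 and -19 in Aurka.
Plk1: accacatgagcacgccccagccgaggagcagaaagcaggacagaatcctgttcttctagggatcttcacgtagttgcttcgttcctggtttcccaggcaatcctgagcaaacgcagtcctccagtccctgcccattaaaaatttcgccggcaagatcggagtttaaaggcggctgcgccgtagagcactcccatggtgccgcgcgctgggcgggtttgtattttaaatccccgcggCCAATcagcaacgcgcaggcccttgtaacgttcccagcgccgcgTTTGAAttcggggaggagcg
Cenpa: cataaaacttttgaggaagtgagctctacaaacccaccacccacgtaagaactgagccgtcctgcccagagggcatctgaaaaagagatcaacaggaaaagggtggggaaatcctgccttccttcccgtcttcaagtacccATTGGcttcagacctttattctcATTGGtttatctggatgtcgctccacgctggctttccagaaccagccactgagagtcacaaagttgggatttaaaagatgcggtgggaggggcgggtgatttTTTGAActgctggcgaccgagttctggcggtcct
Aurka: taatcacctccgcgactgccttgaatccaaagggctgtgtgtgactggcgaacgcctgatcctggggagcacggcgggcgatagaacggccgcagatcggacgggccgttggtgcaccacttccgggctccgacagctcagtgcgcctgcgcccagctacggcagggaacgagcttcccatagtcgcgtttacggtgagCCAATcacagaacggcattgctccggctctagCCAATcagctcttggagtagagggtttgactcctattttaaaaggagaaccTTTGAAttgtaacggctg

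Some secreted signals rose. Of 26 cytokine and chemokine genes 5 rose and 2 fell (median 0.08). On median-centred intensities 10 were higher, these 5 included, where 9.51% of all genes were higher. Il6, the inflammatory cytokine interleukin-6, read 932 and 1164 on the sh-scr arrays and 3666 and 2865 on the sh-PRDM16 arrays and rose by 1.62 ± 0.18 (adjusted p = 5.3e-04). Il11, a cytokine of the same family, read 282 and 284 against 782 and 645 and rose by 1.28 ± 0.15 (adjusted p = 7.1e-04). Ptgs2, the inducible cyclooxygenase, read 2793 and 2402 against 5226 and 4429 and rose by 0.89 ± 0.16 (adjusted p = 0.0059). Both sh-PRDM16 arrays lay above both sh-scr arrays in all 3. Il33, an alarmin of stromal cells, rose by 0.58 (adjusted p 0.064 to 0.15 with 1 array left out, at or above 0.05 without sh-scr replicate 1, sh-scr replicate 2, sh-PRDM16 replicate 1 or sh-PRDM16 replicate 2). Ccl9, a chemokine of myeloid cells, fell by 0.80 (782 and 802 against 471 and 427). The deposited count of 5 rises was 3 without sh-scr replicate 1, sh-scr replicate 2 or sh-PRDM16 replicate 1.

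In the extracellular matrix list 4 of 49 genes rose and 2 fell (median -0.06). On median-centred intensities 12 were higher, these 4 included, against 9.51% of all genes. The matrix proteases Mmp3 (863 and 664 against 1468 and 1169) and Mmp13 (149 and 115 against 246 and 211) rose by 0.78 (adjusted p 0.013 to 0.12 with 1 array left out, at or above 0.05 without sh-scr replicate 2 or sh-PRDM16 replicate 1) and 0.73 (adjusted p 0.020 to 0.15 with 1 array left out, at or above 0.05 without sh-scr replicate 2, sh-PRDM16 replicate 1 or sh-PRDM16 replicate 2), and Vcan, versican, rose by 0.60 (adjusted p 0.033 to 0.086 with 1 array left out, at or above 0.05 without sh-scr replicate 1 or sh-scr replicate 2). Eln, elastin (162 and 228 against 95.5 and 61.3), and Col8a1 (529.8 and 466 against 259 and 232) fell, with log2 changes of -1.17 (adjusted p 0.0070 to 0.099 with 1 array left out, at or above 0.05 without sh-scr replicate 2 or sh-PRDM16 replicate 2) and -0.97. Of 16 acute phase genes 3 fell and 0 rose, and the share of 18.75% stands beside 12.2% over all genes. They were Steap4, a metalloreductase of fat cells (1779.9 and 2150.0 against 313 and 282, log2 change -2.66), Orm1, a plasma glycoprotein (1437 and 1594 against 554 and 516, log2 change -1.47), and Cp, ceruloplasmin (2017 and 2659.9 against 1227 and 1107, log2 change -0.98). On deposited intensities 7 acute phase genes were lower, and 3 to 6 with 1 array left out.

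Interferon-response genes could not be read as a group because the 2 sh-PRDM16 arrays disagreed in them. Of 31 tested, 3 fell and 0 rose on both scales, and the share of 9.68% is near the 12.2% of all genes that fell. Psmb8 and Psmb9, subunits of the immunoproteasome, read 1602 and 1728 against 712 and 650.2 and 1437 and 1690.1 against 562 and 569 and fell, with log2 changes of -1.27 and -1.44 with both sh-PRDM16 arrays alike. Bst2, tetherin, fell by 0.57 (adjusted p 0.040 to 0.13 with 1 array left out, at or above 0.05 without sh-scr replicate 1, sh-scr replicate 2 or sh-PRDM16 replicate 2). On deposited intensities 4 genes were called higher without sh-PRDM16 replicate 1 and 0 with all arrays, and 6 were called lower without sh-PRDM16 replicate 2.

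The 15 largest rises included genes of no list. Vip, which encodes vasoactive intestinal peptide, read 3.6 and 0.8 against 41.6 and 55.2 and rose by 1.82 ± 0.16 (adjusted p = 1.6e-04), from values at the floor. The filter on dim genes used the mean over all arrays of the series, which was 22.3 for Vip. Without and with rosiglitazone Vip averaged 2.2 and 2.6 in sh-scr cells, and 48.4 and 36.15 in sh-PRDM16 cells. Genes as dim as Vip in sh-scr cells were left out, so Vip entered the test only through the sh-PRDM16 arrays. Crabp1, a retinoic acid binding protein, read 155 and 174 against 469 and 426 and rose by 1.36 ± 0.14 (adjusted p = 4.0e-04). Has1, a hyaluronan synthase, read 72.6 and 94.9 against 229 and 204 and rose by 1.23 ± 0.18 (adjusted p = 0.0021). Tll1, a matrix protease of the tolloid family (21.4 and 33.6 against 97.4 and 80.6), rose by 1.28, and Mapk13, a p38 kinase (13 and 17.7 against 54.4 and 55.6), by 1.18. Aif1l (6.8 and 3.1 against 31.8 and 47.1) rose by 1.40, from values at the floor. Its dimmer probe sets, averaging 40.6 and 33.7, gave 0.20 and -0.12 (adjusted p = 0.66 and 0.90 in a limma fit of all probe sets). Chtf18, Wdr90 and Krt20 were dim with sh-scr (from 3.1 to 32.2) and depended on which arrays were used: their adjusted p was 0.011, 3.5e-04 and 0.0013 without sh-scr replicate 2, but 0.086 to 0.16, 0.10 to 0.15 and 0.091 to 0.13 without sh-scr replicate 1, sh-PRDM16 replicate 1 or sh-PRDM16 replicate 2. The remaining large falls outside the lists were Tmem45b (510.0 and 652 against 70.6 and 74.8, log2 change -2.74), Akr1c14, a steroid dehydrogenase (165 and 184 against 23.3 and 7.4, log2 change -2.65), and Cbr2, a carbonyl reductase of fat cell differentiation (908 and 1219.7 against 181 and 167, log2 change -2.49).

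Other lists had few genes called on both scales, with shares to be read beside the 12.2% of all genes that fell and the 1.98% that rose. Of 30 ribosomal protein genes 0 were called by limma on both scales, with 2 higher and 0 lower at an unadjusted p under 0.05 on deposited intensities and a median of -0.12. Of 13 housekeeping genes 1 fell, the mitochondrial Sdha. Of 33 genes of the unfolded protein and ATF4 response 1 rose (Shmt2) and 2 fell (Atf3 and Ddit3), of 22 p53 targets 1 rose (Pmaip1) and 2 fell (Sesn1 and Phlda3), of 21 TGFβ and BMP genes 1 rose (Ltbp1) and of 22 Wnt genes 2 fell (Fzd4 and Ccn5). The falls among p53 and Wnt genes (9.09% of each list) are near that background. On median-centred intensities, where 9.51% of all genes were higher, 12 of 33 genes of the ATF4 list, 4 of 22 p53 targets and 5 of 21 TGFβ and BMP genes were higher, as were 2 of 30 ribosomal protein genes. With 1 array left out, the deposited counts of lower genes ranged from 1 to 3 in the ATF4 list and from 0 to 3 in the p53 and Wnt lists, against 2, 3 and 3 with all arrays. Ltbp1 was at or above 0.05 with any 1 untreated array left out (adjusted p 0.058 to 0.22), and Shmt2, Sesn1 and Phlda3 with 3 of the 4.

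Markers of the other cell types a stromal culture can hold had few genes called on both scales. Of 20 precursor and stromal genes 1 rose, Pdpn, podoplanin (2710.3 and 2512 against 4418 and 3715), and 2 fell, Pdgfra, the receptor that marks fat cell precursors (2042 and 2081 on the sh-scr arrays and 1308 and 1082 on the sh-PRDM16 arrays, log2 change -0.78), and Ccn5. A dimmer Pdgfra probe set, averaging 221, gave -0.24 (adjusted p = 0.39 in a limma fit of all probe sets). Thy1, another stromal marker, read 6739 and 6231 against 8267 and 7067, a log2 change of 0.24 ± 0.14 (adjusted p = 0.29). Of 16 endothelial genes 1 fell, Fabp5, which fat cells and macrophages also express (19422 and 18834 against 12129.6 and 10917), and the defining endothelial markers Pecam1, Cdh5, Kdr and Tek lay between 36.7 and 175 on all 4 arrays. Of 20 smooth muscle and pericyte genes Cnn1 and Lmod1 rose and Mcam fell. Brightness varied within the list. Acta2, smooth muscle actin, read 17706 and 17313 on the sh-scr arrays and 17009.6 and 16300.1 on the sh-PRDM16 arrays. The defining marker Myh11 read 162.6 and 133.5 against 180.4 and 183.8. Of 15 skeletal muscle genes Acta1 rose (2032 and 1891 against 3543 and 3235) and Myh1 fell, while Myod1, Myog, Myh3 and Ckm were under 26 on all 4 arrays. Krt19 was the only one of 7 mesothelial and epithelial genes to be called (96.0 and 139.9 against 251 and 221, log2 change 0.93). Some of these calls depended on which arrays were used: with 1 untreated array left out, Cnn1 (adjusted p 0.055 to 0.18) and Ccn5 (0.061 to 0.10) were at or above 0.05 in all 4 cases, Lmod1 (0.022 to 0.14) and Acta1 (0.033 to 0.073) in 3 and Pdpn (0.021 to 0.11) in 1. On median-centred intensities, where 9.51% of all genes were higher, 6 of 20 smooth muscle and pericyte genes and 5 of 20 precursor and stromal genes were higher. Both counts include the genes that rose on both scales.

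The same hairpins compared with rosiglitazone, on 4 arrays that share none with the untreated comparison, gave 876 genes higher (9.42%) and 438 lower (4.71%) on both scales. Both comparisons came from the same limma fit, with a shared estimate of the spread of each gene, so their calls are not independent. Of the 184 genes that rose without the drug 134 also rose with it (72.8% of those without, 15.3% of those with), and 1 fell. Of the 1135 that fell without it 364 also fell with it (32.1% of those without, 83.1% of those with), and 12 rose. Across the 9295 genes the 2 differences correlated at r = 0.688 as a description, since genes are not independent replicates and all arrays share the platform and probe effects. Macrophage genes fell and cell cycle genes rose in both settings. With rosiglitazone 18 of 21 macrophage genes fell (median -1.96), and 29 of 36 cell cycle genes rose (median 1.05). Lyz2 gave -3.62 with the drug and -3.69 without it, Il6 gave 2.21 and 1.62, and Aurka gave 1.56 and 1.04.

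In most lists of fat cell genes fewer calls on both scales were made with the drug. General adipocyte genes gave 5 falls and 2 rises of 28 (median -0.20), fatty acid synthesis genes 5 falls and 1 rise of 20, fatty acid oxidation genes 9 falls and 2 rises of 26, citric acid cycle and amino acid genes 8 falls of 32, and respiratory chain genes 4 falls of 69. Brown-selective genes gave 12 falls and 2 rises of 25 with the drug, against 11 and 1 without it. The lower counts depended on the scale: on median-centred intensities, where 12.2% of all genes were lower with the drug, 16 of 28 general adipocyte, 9 of 20 fatty acid synthesis, 21 of 26 fatty acid oxidation, 19 of 32 citric acid cycle and amino acid and 27 of 69 respiratory chain genes were lower with it. These counts do not test a difference between the settings. That difference was tested gene by gene as an interaction, which called 70 genes on deposited intensities (0.753%), 63 with a higher (0.678%) and 7 with a lower (0.0753%) knockdown difference under the drug. However, the median difference over all genes was itself -0.16 without and 0.15 with the drug, and after median-centring 5 were called, or 0.0538%. At an unadjusted p under 0.05 the interaction gave 2375 genes on deposited and 1263 on centred intensities. Pparg had an adjusted interaction p of 0.13, Cd36 of 0.053 and Pnpla2 of 0.062 on deposited intensities. Cidec had 0.033, and none of these 4 was among the 5.

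**Figure D4:**
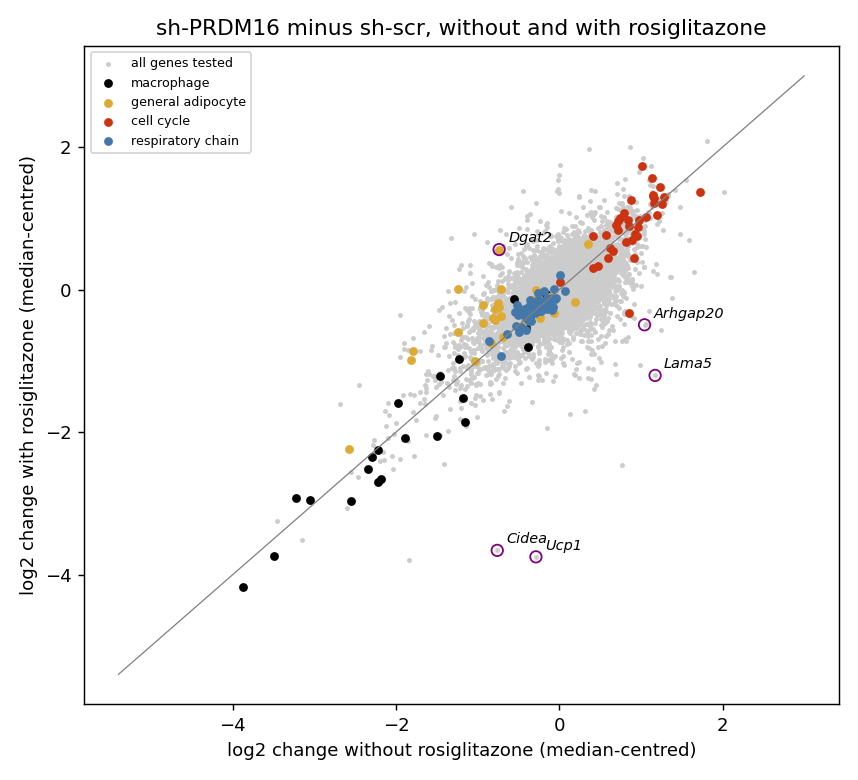
Difference of each gene between sh-PRDM16 and sh-scr without rosiglitazone (x axis) and with it (y axis), as log2 of median-centred intensity + 16, with 4 gene lists in colour, the line of equal change, and the 5 interaction genes circled. Macrophage genes lie at the lower left and cell cycle genes at the upper right near the line, and most general adipocyte genes lie above it.

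The 5 genes called on both scales were Ucp1, Cidea, Lama5, Arhgap20 and Dgat2. Ucp1 and Cidea were near the floor without the drug, and with it they were high in sh-scr cells and lower in sh-PRDM16 cells. Ucp1 read 1296 and 1322 on the treated sh-scr arrays and 81.9 and 101 on the treated sh-PRDM16 arrays, and its knockdown difference changed by -3.15 ± 0.32 on deposited intensities (adjusted p = 0.0098) and -3.46 ± 0.31 after median-centring (adjusted p = 0.046). Cidea read 510.5 and 585 on the treated sh-scr arrays and 29.8 and 35.1 on the treated sh-PRDM16 arrays, and its difference changed by -2.59 ± 0.23 on deposited intensities (adjusted p = 0.0098) and -2.90 ± 0.21 after median-centring (adjusted p = 0.030). Dgat2, which makes triglycerides, fell without the drug (3114 and 3339 against 1819 and 1562) and was higher in knockdown cells with it (1383 and 1328 on the treated sh-scr arrays and 2115 and 2259.8 on the treated sh-PRDM16 arrays), a change of 1.61 ± 0.19 on deposited intensities (adjusted p = 0.0098) and 1.30 ± 0.09 after median-centring (adjusted p = 0.030). Lama5, a laminin chain, was dim throughout: it rose without the drug (14.9 and 12.6 against 41.3 and 44.1) and was lower with it (44.7 and 37.3 on the treated sh-scr arrays and 7.1 and 15.2 on the treated sh-PRDM16 arrays), a change of -2.06 ± 0.23 on deposited intensities (adjusted p = 0.0098) and -2.38 ± 0.20 after median-centring (adjusted p = 0.034). Arhgap20 rose without the drug (57.4 and 56.4 against 129 and 104) and read 112 and 121 on the treated sh-scr arrays and 84.7 and 87.9 on the treated sh-PRDM16 arrays, a change of -1.22 ± 0.19 on deposited intensities (adjusted p = 0.033) and -1.54 ± 0.13 after median-centring (adjusted p = 0.034). These calls depended on the treatment of low signal and of probe sets. With a pseudocount of 1 in place of 16, the difference was -1.31 for Cidea and -2.61 for Ucp1 (adjusted p = 0.17 for both), -3.44 for Lama5 (adjusted p = 0.057) and -1.44 for Arhgap20 (adjusted p = 0.072), and Dgat2 kept its call (adjusted p = 0.040). With its probe sets averaged, Lama5 gave -0.70 (adjusted p = 0.19). The dimmer of its 2 probe sets gave a difference of -0.47 without the drug (adjusted p = 0.66 in a fit of all probe sets), opposite in sign to the 0.98 of the chosen one. Arhgap20 had an adjusted p of 0.047 to 0.10 with 1 of the 8 arrays left out, at or above 0.05 in all but 1 case. Without sh-PRDM16 untreated replicate 2 the adjusted p of all 5 was 0.091 on deposited intensities, where 0 genes were called by limma and 1462 had an unadjusted p under 0.05. After median-centring 0 genes were called without either sh-PRDM16 untreated array, with 1185 and 1081 at an unadjusted p under 0.05.

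**Figure D5:**
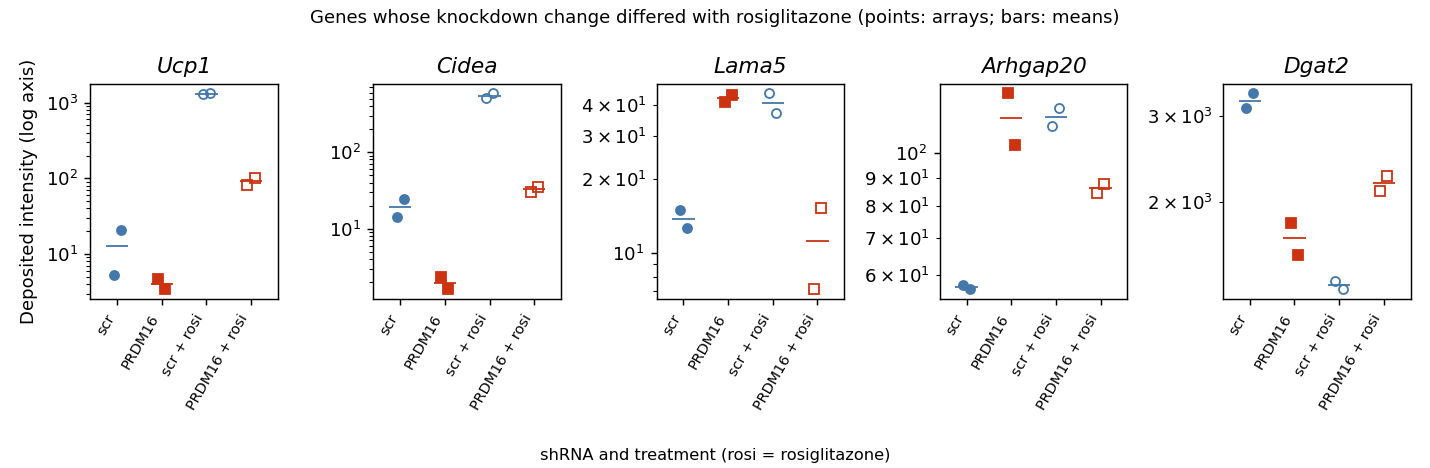
Deposited intensity (y axes, log scale, different in each panel) of the 5 interaction genes on all 8 arrays, by hairpin and treatment (sh-scr blue circles, sh-PRDM16 red squares, open symbols with rosiglitazone, bars at the means of 2). Ucp1 and Cidea are highest in treated sh-scr cells, and Dgat2 and Lama5 order the hairpins oppositely without and with the drug.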

How the data were processed

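Total RNA was profiled on Affymetrix mouse 430A_2 arrays, per the labels' protocols as biotin-labelled cRNA. The authors deposited linear intensities of 22690 probe sets on 8 arrays, from 0.1 to 22736. How they were summarised and scaled is not given in the sources used here. Probe sets with 1 gene in the platform annotation (20380) were named, symbols were matched by Entrez ID to RefSeq (12369 of 12393 genes), and the probe set with the highest mean stood for each gene. The lowest 25% of genes by mean were left out, leaving 9295. limma 3.58.1 (R 4.3.3) was fitted to log2(intensity + 16) of all 8 arrays, with a mean per group and Benjamini-Hochberg adjustment over all genes, on deposited and on median-centred values. It was tested on simulated data. Precision is limited by having 2 arrays in each group. Named genes were the 15 largest rises and falls and a fixed set of fat cell genes. The largest rises and falls were picked among genes called on both scales whose groups did not overlap on either scale. Also named were up to 6 members of each list with the largest change, and the interaction genes. Defining cell type markers are named as well, and a few genes (Cd68, Adgre1, Ptprc, Ctss, Rsad2, Thy1 and the endothelial markers) are named outside this rule and were chosen after their values were seen. The members and the 32 lists were chosen with earlier results of these data known. Alternatives changed the normalization, filter, pseudocount, variance prior, probe set rule and arrays. Replicate numbers were not used to pair arrays. Sequences were read from RefSeq (GRCm38.p6).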

Additional observations from a re-analysis of the deposited data

Results flagged for a closer look

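The knockdown difference with rosiglitazone minus that without it passed the test on both scales for 5 genes, by limma's interaction term. On deposited intensities it was -3.15 for Ucp1, -2.59 for Cidea, -2.06 for Lama5, -1.22 for Arhgap20 and 1.61 for Dgat2. Lama5 was between 7.1 and 44.7 on all 8 arrays. Ucp1 and Cidea were below 25 on the 4 untreated arrays, where the added 16 understates a log2 difference. For these 2 genes an understated untreated difference makes the difference between the settings larger, not smaller. With a pseudocount of 1 in place of 16, the differences of Cidea and Ucp1 were -1.31 and -2.61 (adjusted p = 0.17 for both), and Lama5 and Arhgap20 had an adjusted p of 0.057 and 0.072. With the mean of all probe sets, Lama5 gave -0.70 (adjusted p = 0.19).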

How the results depend on the processing

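On deposited intensities 184 genes were higher and 1458 lower without rosiglitazone (1642 in all). The count of higher genes moved with the scale: 884 after median-centring, 997 after quantile normalization, 102 with no filter on dim genes and 280 with a pseudocount of 64. With 1 untreated array left out it was 86 to 140, with 575 to 1678 lower and 676 to 1764 in all. The counts of lower genes stayed within 1.5 times under the other settings. On median-centred arrays the same 3 counts, 884, 1159 and 2043, were 306 to 400, 525 to 708 and 831 to 1099 with 1 array left out, and 529 higher and 1335 in all with only the 4 untreated arrays; these were chosen after seeing the data. The interaction count of 70 was the least stable: 5 after median-centring, 6 after quantile normalization, 0 with no filter (2399 at an unadjusted p under 0.05), 1035 with the lower 50% of genes left out, 13 and 783 with pseudocounts of 1 and 64, 1294 with a trended prior, and 0 to 75 with 1 array left out. The median-centred count of 5 was 0 to 2 with 1 untreated array left out; the treated arrays were not left out on that scale. The cause of these moves was not tested. Replicate numbers did not pair the arrays (correlation of deviations 0.05 between the untreated groups). With the replicate number as a block, 190 genes were higher and 1268 lower, the interaction called 92 genes, and after median-centring the block left 1 interaction gene, Cidea. Of 204 named genes (143 with the lower 50% left out), none that was called on deposited intensities or under the setting changed sign, while some with small uncalled differences did, such as Eef1a1, Psmb4 and Psmb2 after median-centring. Leaving out sh-scr replicate 2 and sh-PRDM16 replicate 2 cost the most calls among them, 38 and 35. Of the 30 largest changes, 30 kept their call after quantile normalization, and 27 with no filter and with a pseudocount of 1. They were chosen as called on deposited and centred values, with groups that did not overlap on either. Genes below an intensity of about 16 are limited by signal over background.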
